A study of Homo sapiens with 6 samples.

Results

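The immediate early AP-1 and EGR genes described here were *FOS*, *FOSB*, *FOSL1*, *JUN*, *JUNB*, *EGR1*, *EGR3*, *IER2*, *IER3* and *ATF3*. The 10 genes were chosen by symbol among 39739 gene rows, and every symbol matched 1 row. RNA-seq was used to compare their expression in HGC27-FN1 3′-UTR cells, called the overexpressing cells here, with that in HGC27-control cells, and each group had 3 libraries. HGC27 is an established human gastric cancer cell line. The first group carried a lentivirus that stably overexpressed the 3′-UTR of *FN1*, the gene for the matrix protein fibronectin, and was selected as a puromycin-resistant population. The second group was labelled as the control, and the content of its vector was not given in the sources used here. All cells were grown in RPMI-1640 medium with fetal bovine serum, so serum was present in both groups, and the interval between the last feeding and harvest was likewise not given. Nothing in the labels says that the libraries of a group came from separate cultures, so the p-values below measure only the spread between these libraries.

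Immediate early genes are transcribed within minutes of a stimulus such as serum, a growth factor or stress, from factors already present in the cell. Proteins of the FOS and JUN families pair through leucine zippers to form AP-1, a dimer that binds a short palindromic DNA site and drives genes of proliferation, invasion and matrix remodelling. EGR1 and EGR3 are zinc finger transcription factors induced through the ERK pathway and serum response factor. ATF3 is a stress-induced bZIP protein that can pair with JUN proteins, IER2 is a nuclear protein induced early by growth factors, and IER3 is a stress-inducible regulator of survival and ERK signalling.

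Depth ranged from 16357085 to 37037532 reads assigned to genes per library, recovered from the steps of the RPKM values (reads per kilobase of merged exons in each 1000000 assigned reads). The minimum that a count of 0 allows, taken as 3 reads, was 0.081 to 0.183 RPM (reads in each 1000000 assigned reads, without scaling for length). *FN1* itself was at 0.777, 0.745 and 0.819 RPKM in the overexpressing libraries and at 0.543, 0.474 and 0.532 RPKM in the control libraries, a log2 fold change of 0.52 (SE 0.11, limma, adjusted p = 0.0292), and these gene-level values do not separate the 3′-UTR from the rest of the transcript. The labelled cell type was checked against fixed markers, whose counts are given with the gene lists at the end. The mesenchymal gene *VIM* was abundant in both groups (304 ± 13.5 against 303 ± 19.6 RPKM, SD, n = 3 each), while of the gastric markers *TFF1* had 1 and 0 reads in all, *MUC5AC* 1 and 2, *CLDN18* 17 and 18, and *MUC6* 74 and 87 (0.120 ± 0.0364 against 0.117 ± 0.0370 RPKM). The epithelial markers *KRT8*, *KRT18*, *EPCAM* and *CDH1* were higher in the overexpressing cells. *KRT8* was at 12.2 ± 2.04 against 2.15 ± 0.135 RPKM. In the control cells *KRT18*, *EPCAM* and *CDH1* were low, with means of 0.179, 0.208 and 0.126 RPKM. In the overexpressing cells their means were 4.87, 1.81 and 0.703 RPKM. Replicates of a group differed by more than sampling noise (chi-square divided by the number of genes, 2.67 to 6.19).

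In the overexpressing cells, *EGR1*, *IER3*, *FOS*, *FOSL1* and *JUN* rose, by 1.84-fold to 2.90-fold in mean RPKM, and no tested member of the group fell. *JUNB* and *IER2*, the most abundant members in the control cells, differed by less than the spread between libraries. *ATF3* was lower in every overexpressing library than in every control library, but missed the threshold. *FOSB* and *EGR3* were close to the detection limit and could not be tested in the same fit. The test was limma on log2(RPKM + 0.1) over the 23299 genes that reached 0.1 RPKM in at least 3 libraries, with Benjamini-Hochberg adjustment over all of them and a threshold of 0.05. Log2 fold changes below are on this scale, which understates the change of low genes. In bulk RNA, fewer cells expressing a gene and less of its RNA per cell cannot be told apart.

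Of the 10 genes, 8 were tested, 5 were called higher and 0 lower by limma. At an unadjusted p under 0.05, and also with voom on recovered reads, 5 were higher and 1, *ATF3*, was lower. Over all tested genes, 5.62% were called higher and 7.36% lower by limma, and 11.9% and 10.1% with voom. No share of all genes is given here for an unadjusted p under 0.05. Counts at that level, here and in the lists below, therefore lack a background. With another scaling of the libraries (median-ratio factors), the split over all genes moved from 1310 higher and 1715 lower to 1718 higher and 1320 lower, and it was 2762 and 2343 with voom on recovered reads. The 5 called genes also had overexpressing libraries that lay wholly above the control libraries, against 14.3% of all tested genes. The reverse order was seen for 1 of the 8, *ATF3*, against 21.7% of all tested genes. The median log2 fold change of the 8 tested genes was 0.93, beside -0.04 for all tested genes. The study's cutoffs for a differentially expressed gene, an absolute log2 fold change above 1 with an unadjusted P under 0.05, were applied to this limma fit. *EGR1*, *IER3*, *FOS* and *FOSL1* were then 4 upregulated members, against 1.65% of all tested genes, and 0 were downregulated, against 0.815%. *FOS* and *FOSL1* passed narrowly, at 1.02 and 1.01. The fit gave 385 upregulated and 190 downregulated genes, which is not the study's own list, and membership in that list is not given here. The 4 became 1, *IER3*, with a pseudocount of 1, and 3 without any 1 library other than control replicate 2.

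**Figure D1:**
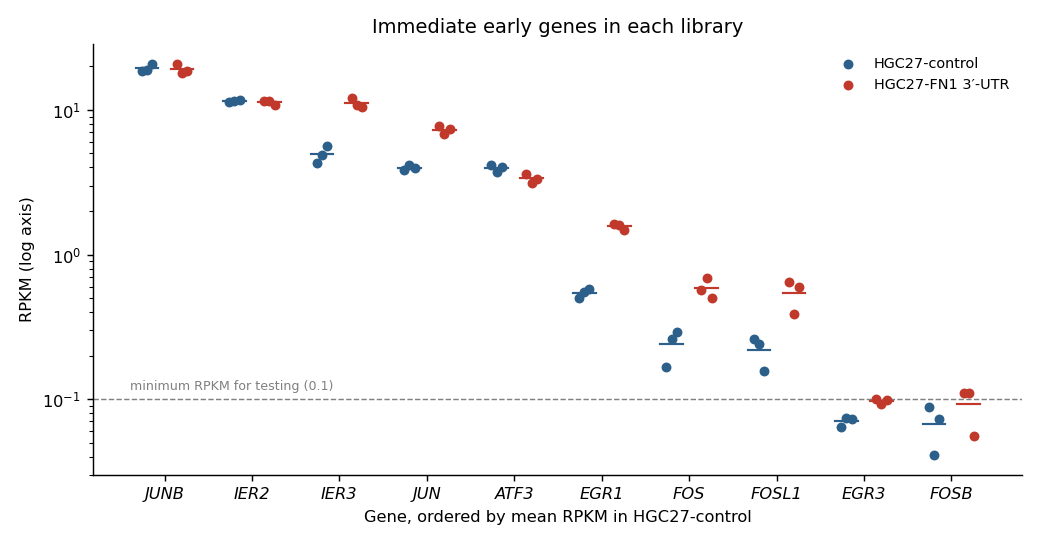
RPKM of the 10 immediate early genes on a log axis, with 1 point per library for the control and the overexpressing (HGC27-FN1 3′-UTR) cells and a bar at each group mean. The dashed line marks 0.1 RPKM, near which *FOSB* and *EGR3* lie. The groups of *EGR1*, *IER3*, *JUN*, *FOS* and *FOSL1* do not overlap, with the overexpressing libraries higher. Those of *ATF3* do not overlap either, with the overexpressing libraries lower, while those of *JUNB* and *IER2* overlap.

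*EGR1*, whose product binds GC-rich promoter sites, showed the largest log2 fold change of the 8 tested members. Its RPKM was 1.64, 1.60 and 1.47 in the overexpressing libraries and 0.499, 0.548 and 0.576 in the control libraries. The lowest overexpressing library was thus well above the highest control library. The means were 1.57 ± 0.0866 and 0.541 ± 0.0390 RPKM (SD, n = 3 each), from 342 and 155 reads in all. The log2 fold change was 1.38 (SE 0.096, 95% confidence interval 1.15 to 1.61, limma, adjusted p = 0.00109). The SDs were 5.51% and 7.20% of the means, where counting error alone would give 9.37% and 13.9%. That interval may therefore be too narrow. With voom on recovered reads the log2 fold change was 1.54 (SE 0.14, 95% confidence interval 1.24 to 1.84). The call was kept when any 1 library was left out, with log2 fold changes of 1.33 to 1.43. The gene lies at chr5:138465490-138469315 on the plus strand of GRCh38, with 3138 bases of merged exons.

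The *EGR1* promoter is shown because, of the 7 member promoters at hand, only its searched window held a CArG box. This box is the binding site of serum response factor. Promoter windows were read from RefSeq on GRCh38.p14, from 250 bases before to 50 after each annotated start, on the gene's strand, and both strands were searched. Windows were matched for 7 members, with 2 windows for *ATF3*, while *FOSL1*, *IER3* and *EGR3* were not matched. A CArG box was found in 1 of the 8 member windows and in 1.29% of all 35116 windows. Boxes outside a window, or with letters that depart from the strict pattern, were not searched for. A member without a match may therefore still hold one. The *EGR1* window held 2, beginning 105 and 83 bases before the start, at chr5:138465364-138465393 and chr5:138465386-138465415 on the plus strand, with the box in capitals:
EGR1 distal CArG box: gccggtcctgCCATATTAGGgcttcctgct
EGR1 proximal CArG box: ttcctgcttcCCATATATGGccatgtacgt
A match describes the letters only, and no binding was measured in these cells.

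Among the JUN genes, *JUN* rose and *JUNB* did not differ beyond its spread. *JUN* encodes c-Jun, the strongly activating partner in AP-1. It was at 7.77, 6.77 and 7.40 RPKM in the overexpressing libraries and at 3.85, 4.13 and 3.97 RPKM in the control libraries. All 3 values were higher than any control value, and 1800 and 1276 reads lay behind the group means of 7.31 ± 0.508 and 3.98 ± 0.145 RPKM. The log2 fold change was 0.86 (SE 0.062, 95% confidence interval 0.71 to 1.01, limma, adjusted p = 0.00126), and the call was kept when any 1 library was left out. *JUN* is encoded at chr1:58780788-58784327 on the minus strand, in a merged exon length of 3540 bases.

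*JUNB*, a weaker activator that can oppose c-Jun, was the most abundant member in both groups by RPKM, which is scaled for length. Its level was 20.9, 17.95 and 18.6 RPKM in the overexpressing libraries and 18.55, 18.9 and 20.65 RPKM in the control libraries. The groups overlapped, and the highest value of each was nearly the same. The log2 fold change was -0.02 (SE 0.070, 95% confidence interval -0.19 to 0.15, limma, adjusted p = 0.895), with 2408 and 3208 reads in all, and its sign turned with the scaling of the libraries. *JUNB* (chr19:12791496-12793315, plus strand) shares 259 bases, 14.2% of its merged exons, with *HOOK2* on the other strand, whose own log2 fold change was -0.46 (adjusted p = 0.00336). The library kit kept strand, but the strand setting of the counting was not given in the sources used here.

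The ratio of the pair was therefore taken within each library. *JUN* over *JUNB* was 0.371, 0.377 and 0.398 in the overexpressing libraries and 0.207, 0.218 and 0.192 in the control libraries. The mean ratio was 0.382 ± 0.0143 against 0.206 ± 0.0130, or 1.86 times higher. A ratio within a library does not depend on the scaling of that library. An exact two-sided permutation test gave p = 0.1, the smallest p that 3 libraries against 3 allow. The pair was chosen with the single-gene values known, so the ratio and its p add no separate evidence. *JUND*, a broadly expressed JUN protein that is no member of the 10, was at 35.0 ± 0.865 against 28.9 ± 1.36 RPKM. *JUN* made up 11.9% of the summed RPKM of *JUN*, *JUNB* and *JUND* in the overexpressing cells and 7.63% in the control cells, while *JUNB* made up 31.1% and 37.1%.

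The FOS genes, whose products cannot form AP-1 without a JUN partner, were low throughout. *FOS*, which encodes c-Fos, was at 0.566, 0.683 and 0.497 RPKM in the overexpressing libraries and at 0.166, 0.261 and 0.292 RPKM in the control libraries. The groups did not overlap, but the counts behind them were small, at 30, 54 and 47 reads against 12, 26 and 35. Its log2 fold change was 1.02 (SE 0.20, 95% confidence interval 0.53 to 1.51, limma, adjusted p = 0.0257). The SD of *FOS* was 16.1% of the mean in the overexpressing cells, where counting error alone would give 15.1%. In the control cells it was 27.4%, where counting error alone would give 20.3%. The *FOS* call was kept without control replicate 3 (adjusted p = 0.0460) and lost when any other library was left out, with adjusted p up to 0.0831. *FOS* lies at chr14:75278774-75282230 on the plus strand.

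*FOSL1*, which encodes FRA-1, an AP-1 subunit linked to invasive behaviour in carcinoma cells, was at 0.648, 0.391 and 0.599 RPKM in the overexpressing libraries and at 0.261, 0.241 and 0.157 RPKM in the control libraries. Overexpressing replicate 2 was the lowest of its group and still lay above the control libraries. Only 71 and 36 reads were counted in the groups, and the log2 fold change was 1.01 (SE 0.23, 95% confidence interval 0.45 to 1.56, limma, adjusted p = 0.0379). The call was kept without overexpressing replicate 2 (adjusted p = 0.0425) and lost without any other library, with adjusted p up to 0.111. Thus 3 or 4 of the tested members were called in every fit without 1 library, where the full set gave 5. *FOSL1* lies at chr11:65892049-65900573 on the minus strand.

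*FOSB*, a close relative of *FOS*, was at 0.110, 0.111 and 0.0555 RPKM in the overexpressing libraries and at 0.0887, 0.0409 and 0.0729 RPKM in the control libraries. The groups overlapped, and the gene reached 0.1 RPKM in 2 libraries only. In all, 34 and 33 reads gave 0.486 RPM (95% exact Poisson interval 0.336 to 0.679) and 0.366 RPM (0.252 to 0.514). Such intervals cover counting error only. A fit of recovered reads with voom, which kept genes with 10 or more reads in total, gave a log2 fold change of 0.44 (95% confidence interval -0.36 to 1.24). No difference in *FOSB* (chr19:45467995-45475179, plus strand) was detectable at this depth.

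*FOSL2*, which encodes FRA-2 and was not among the 10, was the most abundant FOS gene at 3.94 ± 0.0597 against 2.38 ± 0.197 RPKM, a log2 fold change of 0.71 (adjusted p = 0.00321). The summed RPKM of *FOS*, *FOSB*, *FOSL1* and *FOSL2* was 5.31, 5.15 and 5.03 in the overexpressing libraries and 2.75, 2.85 and 3.13 in the control libraries. That sum was 1.77 times higher on average, while the summed RPKM of *JUN*, *JUNB* and *JUND* was 1.18 times higher, at 61.5 ± 2.30 against 52.3 ± 2.46. The JUN sum therefore exceeded the FOS sum 11.9-fold in the overexpressing cells and 18.0-fold in the control cells. *FOSL2* held 76.4% of the FOS sum in the former and 81.9% in the latter, so *FOS* with 11.3% against 8.16% and *FOSL1* with 10.6% against 7.65% were minor components in both.

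**Figure D2:**
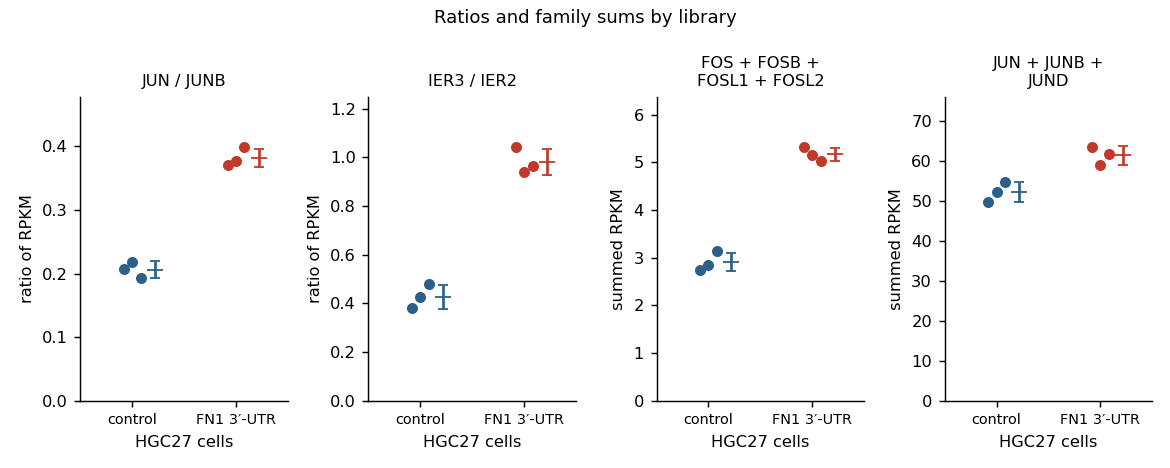
Ratios of *JUN* to *JUNB* and of *IER3* to *IER2*, and summed RPKM of the FOS and JUN families, with 1 point per library and the mean ± SD of 3 libraries. All 4 quantities are higher in each overexpressing library than in each control library, the *IER3* to *IER2* ratio by the largest factor, 2.30.

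*EGR3*, which shares its zinc fingers with *EGR1*, was at 0.101, 0.0928 and 0.0987 RPKM in the overexpressing libraries and at 0.0646, 0.0735 and 0.0723 RPKM in the control libraries. The groups did not overlap, yet each value rested on 7 to 14 reads and 1 library reached 0.1 RPKM. Over the group, 33 and 31 reads gave 0.472 RPM (95% exact Poisson interval 0.325 to 0.662) and 0.344 RPM (0.234 to 0.488), a ratio of 1.37 (0.814 to 2.32). The voom fit that kept genes with 10 or more reads gave a log2 fold change of 0.49 (95% confidence interval -0.20 to 1.18, adjusted p = 0.339). No difference in *EGR3* was detectable at this depth, and whether it differed from that of *EGR1* was not tested. *EGR3* lies at chr8:22687659-22693302 on the minus strand. *EGR2* and *EGR4* were lower still, with 10 against 14 and 2 against 2 reads. The EGR corepressors *NAB1* and *NAB2* had log2 fold changes of -0.06 and -0.14 (limma, adjusted p = 0.415 and 0.123), so 0 of these 2 were called, with 1 at an unadjusted p under 0.05 and 0 with voom.

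*IER2* and *IER3* are named for their early induction and are not members of 1 protein family. *IER3* was at 12.04, 10.87 and 10.51 RPKM in the overexpressing libraries and at 4.33, 4.91 and 5.60 RPKM in the control libraries. The groups were far apart, with means of 11.1 ± 0.800 and 4.94 ± 0.635 RPKM from 1043 and 617 reads. The log2 fold change was 1.16 (SE 0.10, 95% confidence interval 0.92 to 1.40, limma, adjusted p = 0.00218), and the call was kept when any 1 library was left out, at 1.07 to 1.25. *IER3* (chr6:30743199-30744554, minus strand) shares 359 bases, 26.5% of its merged exons, with the antisense gene *XXbac-BPG252P9.10*. That gene rose as well, from 3.74 ± 0.451 to 9.34 ± 1.76 RPKM (log2 fold change 1.29, adjusted p = 0.0048), and without the strand setting the reads of the pair cannot be told apart.

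*IER2* was at 11.56, 11.58 and 10.9 RPKM in the overexpressing libraries and at 11.4, 11.6 and 11.7 RPKM in the control libraries. Its groups overlapped, with 2427 and 3207 reads in all. The log2 fold change of *IER2* was -0.03 (SE 0.037, 95% confidence interval -0.12 to 0.06, limma, adjusted p = 0.701), the narrowest interval of the 8 tested members, and its sign also turned with the scaling. *IER2* (chr19:13150415-13154908, plus strand) shares 30.8% of its merged exons with the antisense gene *CTC-250I14.6*, whose log2 fold change was also -0.03. In the control cells *IER3* was well below *IER2*, whereas in the overexpressing cells their values overlapped. The ratio of *IER3* to *IER2* was 1.04, 0.939 and 0.965 in the overexpressing libraries and 0.380, 0.425 and 0.478 in the control libraries (exact permutation test, p = 0.1, the smallest possible). This pair too was chosen with the single-gene values known, so its ratio adds no separate evidence.

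*ATF3*, a stress-induced gene, was the only tested member whose overexpressing libraries all lay below the control libraries. It was at 3.63, 3.11 and 3.35 RPKM in the overexpressing libraries and at 4.19, 3.71 and 4.05 RPKM in the control libraries. The groups were close but apart, with means of 3.36 ± 0.261 and 3.98 ± 0.246 RPKM from 942 and 1446 reads. The log2 fold change was -0.24 (SE 0.076, 95% confidence interval -0.42 to -0.05), and its adjusted p of 0.0929 (limma) missed the threshold. With voom on recovered reads the log2 fold change was -0.21 and passed (adjusted p = 0.0463), where 10.1% of all tested genes were called lower. The gene spans chr1:212565334-212620777 on the plus strand, with 4040 bases of merged exons.

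The order of the mean levels was the same in both groups, and the gaps between neighbours differed. In the control cells the order ran from *JUNB* through *IER2* and *IER3* to *JUN* and *ATF3*, whose values overlapped, then to *EGR1*, to *FOS* and *FOSL1*, which overlapped, and to *EGR3* and *FOSB*, which overlapped as well. In the overexpressing cells *IER3* reached the range of *IER2*, and *JUN* stood clear of *ATF3*, at 6.77 RPKM or more against 3.63 RPKM or less.

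**Figure D3:**
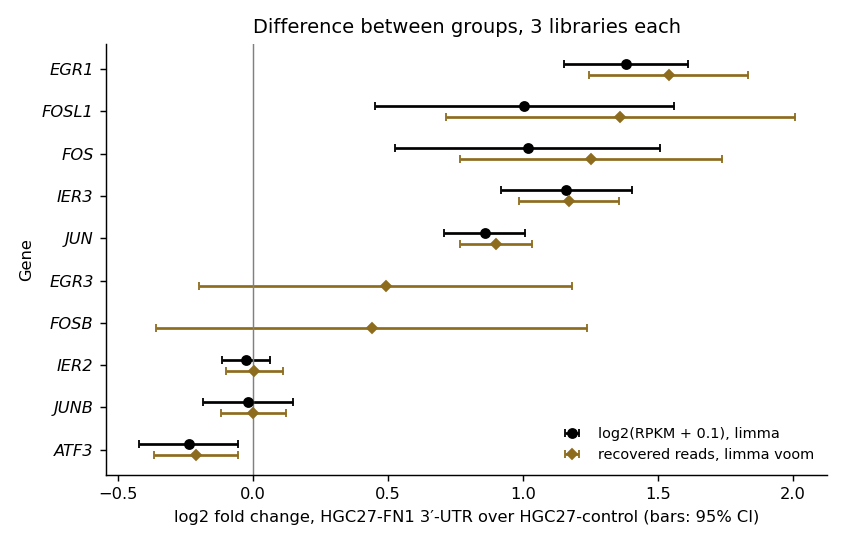
Log2 fold changes of the immediate early genes with 95% confidence intervals, as circles for limma on log2(RPKM + 0.1) in the 8 tested genes and as diamonds for voom on recovered reads in all 10. The intervals of *EGR1*, *IER3*, *JUN*, *FOS* and *FOSL1* lie above 0 in both, and those of *ATF3* lie below 0 in both. The intervals of *JUNB* and *IER2* span 0, and those of *FOSB* and *EGR3* are wide.

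Within the overexpressing group, replicate 1 held the highest value in 6 of the 8 tested members, replicate 2 in 2 and replicate 3 in 0. Over all tested genes these shares were 35.4%, 31.5% and 33.1%. Within the control group, replicate 1 held the lowest value in 6 of the 8 and replicate 3 the highest in 5. Over all tested genes, replicate 1 was lowest in 45.9% and replicate 3 highest in 38.4%. Overexpressing replicate 1 was also the shallowest library, and the part of depth in this order was not tested.

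The promoters of the members that rose and those that did not were compared by the letters they held. The full cyclic AMP response element, TGACGTCA, was in 0 of the 8 member windows and in 1.85% of all windows. The consensus AP-1 sites TGACTCA and TGAGTCA were in 0 member windows and in 4.95% of all, and the EGR sites GCGTGGGCG and GCGGGGGCG in 0 and in 5.77%. Further letters were searched after the windows had been seen. The variant site TGACATCA, the form of the *JUN* promoter bound by c-Jun with ATF2, was in *JUN* and *ATF3* and in 2.61% of all windows. The core TGACG, which lies within the cyclic AMP response element, was in 6 of the 8 member windows, from 6 members, and in 24.6% of all windows. The stretches below are shown because they set *JUN*, which rose, beside *ATF3*, which was lower, and *FOS*, which rose, beside *JUNB* and *IER2*, which did not differ beyond their spread. Capitals mark the variant site or the core, which reads CGTCA where it is on the other strand. The stretches lie at chr1:58784096-58784125 (*JUN*, minus strand), chr1:212565273-212565302 (*ATF3*), chr14:75278752-75278780 (*FOS*), chr19:12791337-12791365 (*JUNB*) and chr19:13150259-13150287 (*IER2*), the last 4 on the plus strand:
JUN variant AP-1 site: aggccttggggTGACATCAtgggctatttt
ATF3 variant AP-1 site: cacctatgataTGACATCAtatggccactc
FOS core: tggttgagcccgTGACGtttacactcatt
JUNB core: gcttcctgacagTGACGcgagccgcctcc
IER2 core: cacccccgccccCGTCAcgccaccatcga
The variant site was held by *JUN*, which rose, and by *ATF3*, which was lower but missed the threshold. The core was held by members that rose and by members that did not differ beyond their spread. *FOSL1* and *IER3*, which rose, had no window, and any part of these letters in expression was not tested.

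The other AP-1 and related bZIP factors were mixed. Of 18 listed, 14 were tested, 5 rose and 2 fell, with a median log2 fold change of -0.01. At an unadjusted p under 0.05, 5 were higher and 4 lower, and voom called 5 higher and 3 lower. Those that rose were *FOSL2* and *JUND*, described above, the small MAF protein gene *MAFF* (log2 fold change 0.84, adjusted p = 0.0219), *CREB5* (1.0, adjusted p = 0.0361) and *ATF1* (0.16, adjusted p = 0.0427), the last named after its value was seen. *CREB5* passed the minimum through the overexpressing libraries alone, at 0.186 ± 0.0408 against 0.0419 ± 0.00661 RPKM. Those that fell were *JDP2*, which encodes a repressor that pairs with c-Jun (19.0 ± 0.455 against 24.4 ± 0.531 RPKM, log2 fold change -0.36, adjusted p = 0.00263), and *MAFA* (-0.57, adjusted p = 0.00341).

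Among 35 other immediate early genes, all of them tested, 11 rose and 1 fell, and the median log2 fold change was 0.05. At an unadjusted p under 0.05, 13 were higher and 6 lower, and voom called 14 higher and 1 lower. The genes with the lowest adjusted p were *PLK2*, a stress-induced kinase gene (10.0 ± 0.746 against 4.34 ± 0.215 RPKM, log2 fold change 1.19, adjusted p = 0.000539), *CTGF* (1.34, adjusted p = 0.00188) and *CYR61* (1.39, adjusted p = 0.00223), which encode secreted matricellular proteins, and *PPP1R15A* (0.50, adjusted p = 0.00329), which encodes a phosphatase subunit of the stress response. The gene that fell was *MYC*, at 80.4 ± 1.83 against 102.8 ± 5.74 RPKM (log2 fold change -0.35, adjusted p = 0.00733). Of 21 upstream kinases and serum response factors, all tested, 0 rose and 1 fell by limma, the ribosomal S6 kinase gene *RPS6KA2* (log2 fold change -0.84, adjusted p = 0.0167). At an unadjusted p under 0.05, 1 was higher and 5 were lower, and voom called 2 higher and 5 lower. *SRF*, whose product binds the CArG box, had a log2 fold change of 0.05 (adjusted p = 0.500).

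Textbook AP-1 target genes were described from a list of 20, of which 19 had a row and 10 were tested. Of these 6 rose and 2 fell, with a median log2 fold change of 0.41. *PLAUR*, the urokinase receptor gene (6.46 ± 0.293 against 4.91 ± 0.0668 RPKM, log2 fold change 0.39, adjusted p = 0.00599), the cytokine gene *LIF* (1.14, adjusted p = 0.00633), the hyaluronan receptor gene *CD44* (0.42, adjusted p = 0.0130) and *TIMP1*, a metalloproteinase inhibitor gene (0.53, adjusted p = 0.0163), rose with the lowest adjusted p. The interstitial collagenase gene *MMP1*, named after its value was seen, rose as well but was at 0.104 to 0.226 RPKM in the overexpressing libraries and at 0 to 0.0227 RPKM in the control libraries. It thus passed the minimum only through the group in which it was high. The members of the list that fell were *VEGFA*, an angiogenic factor gene (6.03 ± 0.0205 against 9.16 ± 0.249 RPKM, log2 fold change -0.60, adjusted p = 0.000739), and the EGF receptor ligand gene *HBEGF* (-0.44, adjusted p = 0.0156). *MMP9*, *MMP10*, *MMP12*, *MMP13*, *CXCL8*, *IL6*, *IL11*, *PTGS2* and *SPP1* did not pass the minimum.

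**Figure D4:**
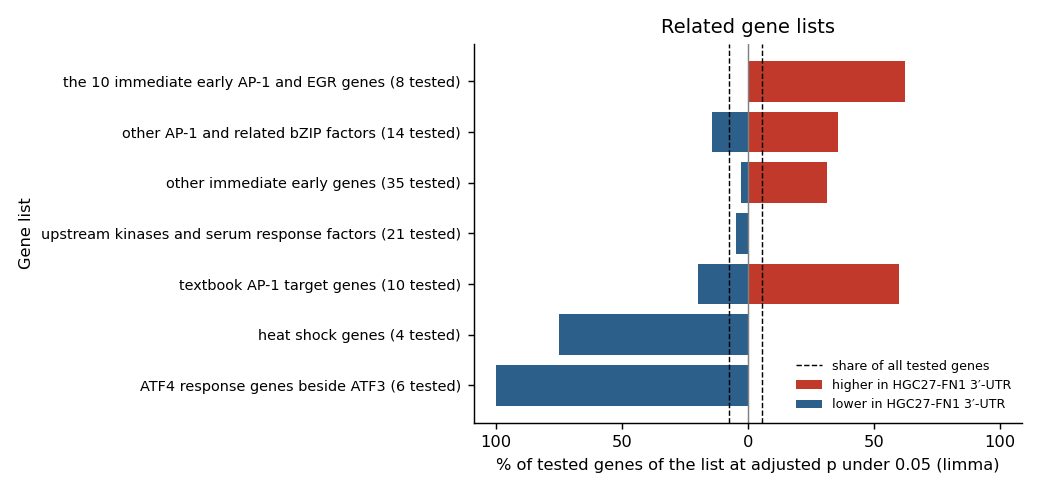
Share of tested genes called higher and lower at an adjusted p under 0.05 in each gene list, in percent, with dashed lines at the shares of all tested genes. For the 10 immediate early genes the share is 5 of 8 tested genes higher and 0 lower, and for the ATF4 response genes 0 of 6 higher and 6 lower.

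Markers of other cell types and stress genes moved in the same comparison. Of 11 epithelial and gastric markers, 6 were tested and 5 rose, and their summed RPKM was 18.4 to 27.3 in the overexpressing libraries against 2.80 to 3.11 in the control libraries. *KRT8* had a log2 fold change of 2.44, *KRT18* of 4.11, *KRT19* of 3.34 and *CDH1* of 1.83. *KRT19* passed the minimum through the overexpressing libraries alone, since it was at 0.0575 to 0.0972 RPKM in the control libraries. Of 4 mesenchymal markers, 3 were tested and 0 were called by limma, by voom or at an unadjusted p under 0.05. Of 10 immune, endothelial and mesothelial markers, 5 were tested and 2 rose, *LYZ* (log2 fold change 3.88) and *UPK3B* (0.84), while *PECAM1* was at 0 in all libraries and *PTPRC*, *VWF* and *CDH5* did not pass the minimum. The summed RPKM of that list was 12.7 to 14.5 against 8.31 to 8.52. Of 4 heat shock genes 3 fell, among them *HSPA1A* and *HSPA1B* (log2 fold change -1.01 each), near-identical copies whose reads may be split between them, and *DNAJB1* (-0.26). All 8 mitochondrial transcripts were tested and 0 were called by limma, while 3 were lower at an unadjusted p under 0.05 and 3 with voom. The part of these differences in those of the immediate early genes was not tested.

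The genes of the ATF4 response, the pathway in which *ATF3* is also induced, all fell, 6 of 6, with a median log2 fold change of -0.70. Of all tested genes, 7.36% were called lower by limma. The list was chosen with earlier results of these data known, so the count is a description only. Their summed RPKM was 179 to 181 in the overexpressing libraries and 290 to 298 in the control libraries. *ASNS*, the asparagine synthetase gene, fell by 1.25 on the log2 scale, *ATF4* itself by 0.67, *DDIT3* by 0.61 and *TRIB3* by 0.62. *ATF3*, at -0.24, lay on the same side of 0, and the difference between its change and theirs was not tested.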

How the data were processed

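RNA from overexpressing and control HGC27 cells was sequenced by the study as stranded mRNA libraries on an Illumina NovaSeq. According to the submitters' processing notes, Trimmomatic 0.36, STAR 2.5.3a, featureCounts of Subread 1.5.1 and GRCh38 were used. The authors deposited 1 table of RPKM per library, with merged exon lengths. RPKM values were divided by what 1 read is worth, and 100% were whole reads within 0.05 of a read. The strand setting and the treatment of multiply mapped reads were not given in the sources used here.

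Genes with at least 0.1 RPKM in 3 or more libraries were fitted on log2(RPKM + 0.1) with limma 3.58.1 (R 4.3.3; group only, empirical Bayes with trend, two-sided), and p-values were adjusted by Benjamini-Hochberg over 23299 genes. Alternatives were other pseudocounts and minimums, median-ratio scaling, limma's voom on recovered reads, no trend, a replicate block and leaving out each library. The scripts were tested on simulated data, with changes larger than those of the members and only in genes with a mean of at least 1 RPKM. That test does not cover genes as low as *FOS* and *FOSL1*. The members and lists were chosen with earlier results of these data known. All members are named, with up to 4 genes per direction from each other list by lowest adjusted p. All 10 members have the span of GENCODE release 29. Symbols turned into dates (28 rows) and 2 repeated symbols are not described. Depth was 16357085 to 37037532 reads per library, and intervals and minimums from counts cover counting error only.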

Additional observations from a re-analysis of the deposited data

How the results depend on the processing

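*EGR1*, *IER3* and *JUN* kept their direction and their call in all 15 alternatives. *FOS* and *FOSL1* each kept their direction and lost the call in 7, so that the number of members called higher was 3 without a minimum on RPKM, 3 with a mean of at least 1 RPKM (which removes both) and 3 to 4 without 1 library, the 3 arising without overexpressing replicate 1 or 3 or control replicate 1 or 2. The number called lower was 1 (*ATF3*) with voom and 1 with voom on genes of at least 10 reads. The log2 fold changes of *IER2* and *JUNB* turned positive with median-ratio factors (0.0095 and 0.017), with voom (0.0060 and 0.0011) and with voom on genes of at least 10 reads (0.0052 and 0.00039). Without 1 library they ranged from -0.041 to 0.0028 and from -0.084 to 0.028. Neither passed the threshold in any of these.

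Replicate numbers were not used as pairs in the main fit, since same-numbered deviations correlated at only 0.0024, 0.021 and 0.010. No label ties a number to a shared culture. Even so, 5 of 6 libraries correlated best with their own number, and whether a number marks a shared batch was not tested. With a replicate block, 3 members, 564 genes higher and 598 lower were called, and *FOS* and *FOSL1* had adjusted p of 0.0695 and 0.0878.

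The 4 members upregulated by fold and unadjusted P became 1 with a pseudocount of 1 and 2 with a mean of at least 1 RPKM. Over all genes, upregulated genes by fold and unadjusted P numbered 64 with a pseudocount of 1, 95 with a mean of at least 1 RPKM and 791 with voom on genes of at least 10 reads, and downregulated genes 11, 38 and 363, or 295 with a pseudocount of 0.01. Genes called higher at an adjusted p under 0.05 numbered 2762 with voom and 2852 with voom on genes of at least 10 reads. Without 1 library, upregulated genes ranged from 240 (overexpressing replicate 1) to 435, genes higher from 501 to 927 and genes lower from 470 to 1015. Depth limits *FOSB* and *EGR3* to differences outside wide intervals. The causes of these shifts were not tested.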
